A study of Mus musculus with 12 samples.

Results

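Iron enters a T cell mainly through the transferrin receptor, and iron that is not used at once is kept inside ferritin. The 7 genes described here code for proteins of these steps: Tfrc, Steap3 and Slc11a2 for uptake, Fth1 and Ftl1 for storage, Ncoa4 for release from storage, and Ireb2 for the control of several of the others. They were taken from the table by gene symbol. All 7 were found among the 13780 genes of the count table, each once, and all 7 passed the filter on low counts that left 13767 genes for testing.

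RNA was sequenced from CD8+ T cells purified from spleens of wild type C57BL/6J mice aged 8 to 12 weeks. The 12 libraries form 3 groups of 4: naïve cells that were not activated, cells kept in plain media through 72 h of activation, and cells given sodium lactate at 40 mM over the same 72 h. Both activated groups received beads carrying antibodies to CD3 and CD28, and IL-2 at 10 U/ml. Naïve against media compares resting with activated cells, and media against lactate is the study's test of lactate. The cells were purified by positive selection on magnetic beads, and the control for lactate was plain media rather than an equal dose of sodium chloride, so sodium and osmolality differed together with lactate. The record states 5 donor mice for the activated cells. The sample tags repeat between a low and a high run of library numbers, and read separately for each run they give 5 mice, of which 3 contributed to both groups. Total counts ran from 16439750 to 18601223 in the naïve libraries, from 15842423 to 20922872 in the media libraries and from 14726904 to 21478137 in the lactate libraries.

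Transferrin carries ferric iron in the blood and is taken into endosomes by its receptor, where the iron is reduced and moved across the membrane into the cytosol. When cytosolic iron is low, the iron regulatory proteins bind a short hairpin in messenger RNA, the iron-responsive element, which blocks translation of ferritin RNA from the 5′ end and protects the transferrin receptor RNA from decay at the 3′ end. Activated T cells are known to display the transferrin receptor, which is used as a marker of activation, and to need iron for division.

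The naïve libraries differed among themselves in RNA of other spleen cells, and naïve libraries 1 and 2 held the most macrophage and red cell RNA. The summed level of 7 macrophage and monocyte markers was 2718 CPM (counts scaled to a common library size by TMM, edgeR's factor for library composition) in naïve library 1, 1833 in naïve library 2, 820 in naïve library 3 and 681 in naïve library 4. All 7 of these markers were detected in every naïve library, Vcam1 being the most abundant. In the activated libraries their sum ran from 0.141 to 1.25 CPM, and between 1 and 6 of the 7 were at 0. Of 7 red cell markers 6 were in the table, with Hba-a1 the most abundant, and their sum was 1113, 4300, 439 and 98.2 CPM in naïve libraries 1 to 4. It was at most 1.90 CPM in any activated library, where between 2 and 6 of the 6 were at 0. In bulk RNA, fewer cells of a type and less RNA per cell cannot be told apart.

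Markers of dendritic, CD4 T and NK cells were also higher in every naïve library than in any activated one. So was a further marker list of another cell type, which is not given by value. The 5 dendritic cell markers, of which Itgax was the most abundant in each naïve library, summed to 115, 150, 104 and 68.2 CPM in the naïve libraries and to between 1.25 and 4.30 in the activated ones, where 1 to 3 of them were at 0. Cd4 was at 27.1, 23.9, 11.2 and 26.4 CPM in the naïve libraries and at most 0.990 in an activated one, and 2 NK cell markers, Klrb1c and Ncr1, summed to 8.00, 7.21, 3.13 and 4.82 CPM against at most 0.717. The 6 CD8 T cell markers were all detected in every library. Cd8a was the most abundant in all but naïve library 4, where it was at 388 CPM beside 421 for Cd8b1 and 412 for Trac. The markers summed to 1991 CPM or more throughout. The part of other cells' RNA in the differences from naïve cells was not tested. Each called difference of the 7 genes is also given without naïve libraries 1 and 2, a choice made after seeing the data. Naïve libraries 3 and 4 still held the macrophage and red cell RNA given here. They also held RNA of the list not given by value, of which naïve library 4 had more than naïve library 1.

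Over all genes it was naïve library 4 that lay farthest from its group. By the chi-square per degree of freedom between the counts of 2 libraries, it was at 128, 138 and 124 from naïve libraries 1 to 3, which were 24.6 to 44.9 from one another. It also had the lowest sum of CD8 T cell markers, 1991 CPM against 2998 to 4036 in the other naïve libraries. Without it the log2 fold changes of media and lactate against naïve cells were 1.83 and 1.86 for Tfrc, -1.58 and -1.52 for Fth1, -1.78 and -1.36 for Ftl1, and -2.64 and -2.18 for Steap3, and that of lactate was -0.75 for Ncoa4, all called in edgeR.

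**Figure D1:**
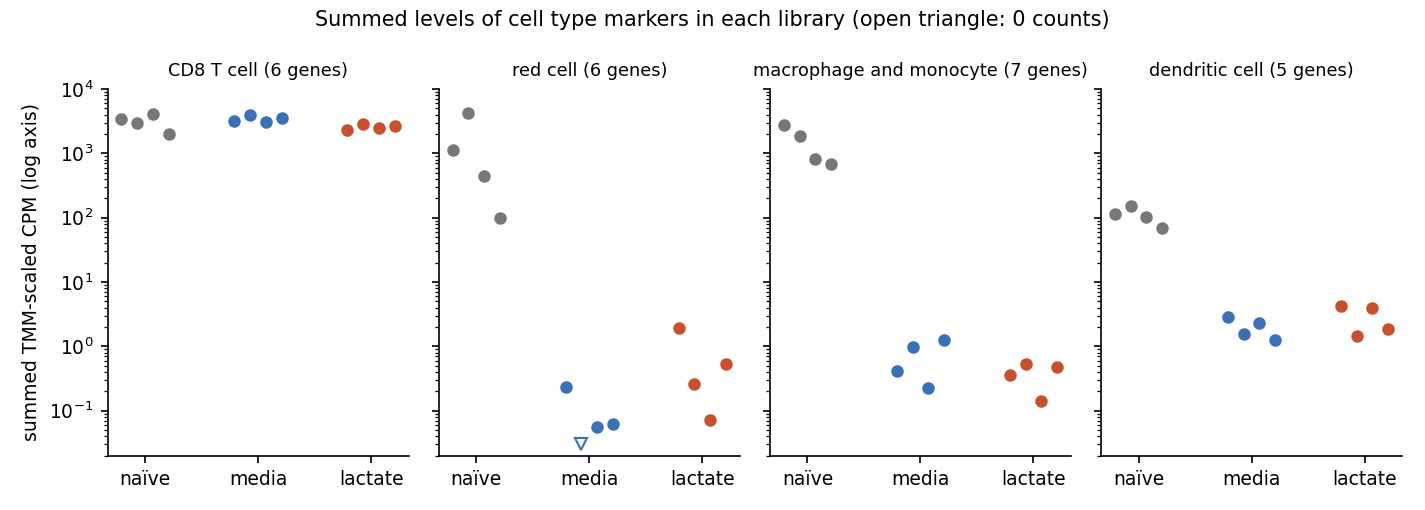
Summed level of marker genes of macrophages and monocytes, red cells, dendritic cells and CD8 T cells in each library, in CPM on a log axis, with an open triangle for a sum of 0. Macrophage and monocyte markers sum to between 681 and 2718 CPM in the 4 naïve libraries and to at most 1.25 CPM in the 8 activated ones, while CD8 T cell markers sum to at least 1991 CPM in all 12.

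Compared with one another per length of transcript, the ferritin genes were the most abundant of the 7 in naïve cells. As mean levels over 4 libraries in TPM, which divides counts by gene length before scaling each library to a common total, Ftl1 stood at 1591 ± 491 (SD) and Fth1 at 1005 ± 224, ranks 67 and 111 of 13767 tested genes. Tfrc stood at 89.2 ± 35.0 TPM, Ireb2 at 38.2 ± 8.97, Slc11a2 at 36.4 ± 9.55, Ncoa4 at 13.7 ± 2.74 and Steap3 at 3.90 ± 2.96. Ftl1 and Fth1 overlapped between libraries on this scale, as did Ireb2 and Slc11a2.

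In activated cells the order of the levels was different, with Tfrc beside the ferritin genes. In media the TPM level of Ftl1 was 492 ± 40.8, that of Tfrc 373 ± 78.6 and that of Fth1 336 ± 42.1. In lactate the same levels were 604 ± 42.2, 348 ± 69.8 and 319 ± 33.7 TPM. Tfrc and Fth1 overlapped in both groups, and their order turned when the length of the longest transcript was used in place of the table's gene length, which put Fth1 at 425 and Tfrc at 354 TPM in media. Slc11a2 and Ireb2 overlapped in both activated groups, at 42.4 ± 5.14 and 40.6 ± 6.96 TPM in media and at 29.0 ± 2.23 and 29.6 ± 6.61 in lactate. Ncoa4 followed at 14.0 ± 1.07 TPM in media and 8.25 ± 0.965 in lactate, and Steap3 was lowest in both at 0.790 ± 0.325 and 0.992 ± 0.198.

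**Figure D2:**
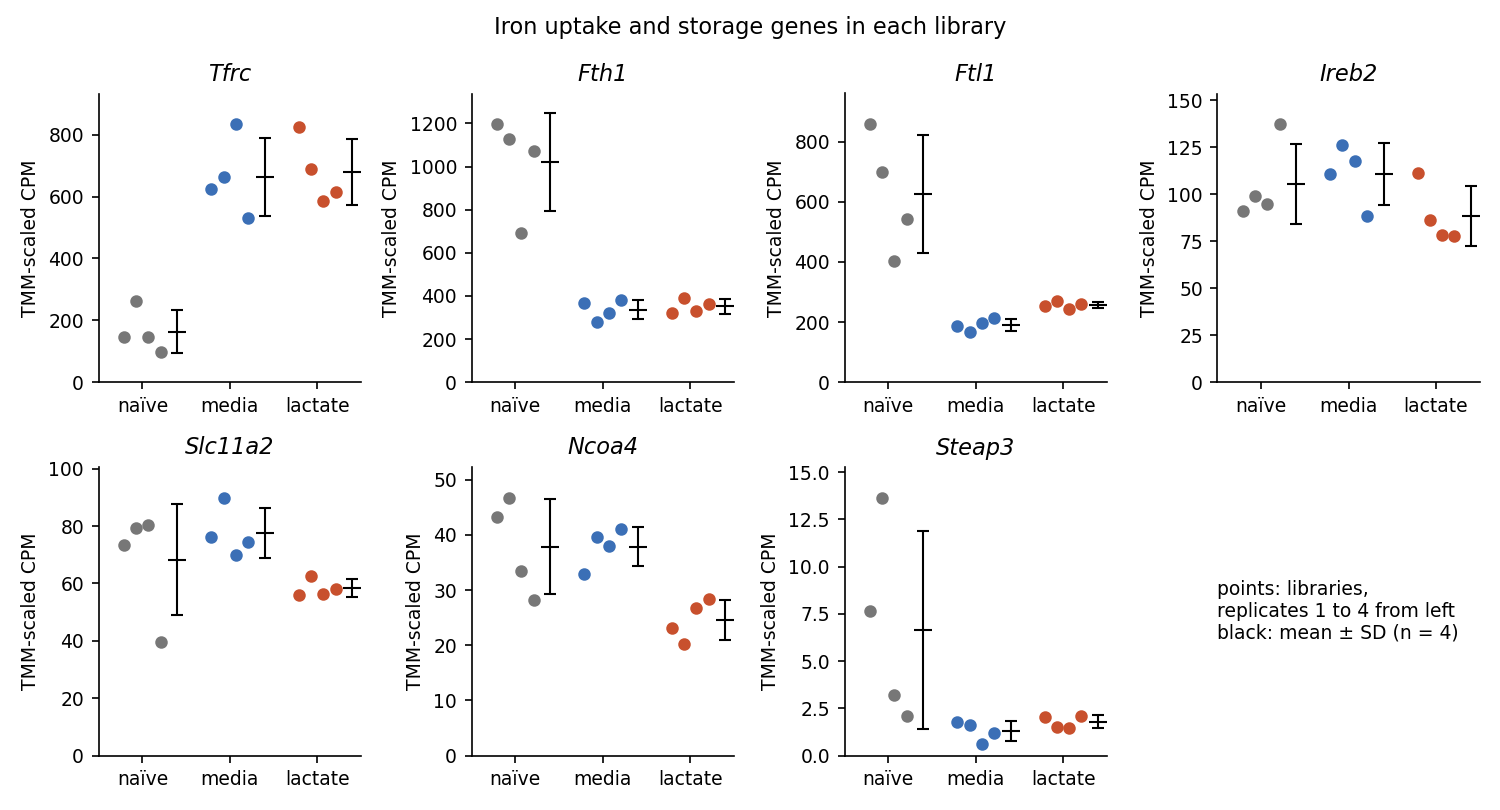
Level of each of the 7 genes in every library, in CPM with replicates 1 to 4 from left to right and the mean and SD of each group. Tfrc lies between 97.7 and 263 CPM in naïve cells and between 530 and 833 in activated ones, and Fth1 lies between 692 and 1195 in naïve cells and between 279 and 392 in activated ones.

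Activation without lactate came with more transferrin receptor RNA and less ferritin RNA. Tfrc, the receptor for transferrin, was at 147, 263, 146 and 97.7 CPM in naïve libraries 1 to 4 and at 626, 664, 833 and 530 CPM in media libraries 1 to 4. Every media library was above every naïve one, and naïve library 2, which also held the most red cell RNA, was the highest of its group. The rise was 2.02 on the log2 scale (SE 0.26, adjusted p = 1.84e-05 in edgeR). It was 2.38 without naïve libraries 1 and 2.

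The heavy and light chains of ferritin, the hollow protein shell in which cells keep iron, both fell. Fth1, the heavy chain, which oxidises iron as it enters the shell, was at 1195, 1127, 692 and 1073 CPM in naïve cells and at 369, 279, 321 and 379 CPM in media. Ftl1, the light chain, was at 858, 701, 402 and 543 CPM in naïve cells and at 186, 166, 196 and 215 CPM in media. For both genes all media libraries lay below all naïve ones, and naïve library 1, with the largest macrophage marker sum, was the highest. The order of the naïve libraries did not follow that sum, since naïve library 4, where it was smallest, was above naïve library 3 for both. The log2 fold change was -1.60 for Fth1 (SE 0.16, adjusted p = 2.76e-06 in edgeR) and -1.72 for Ftl1 (SE 0.19, adjusted p = 4.96e-06 in edgeR). Without naïve libraries 1 and 2 these were -1.46 and -1.38.

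Steap3, the endosomal reductase that converts ferric to ferrous iron, was a gene of low count. It had 136, 227, 60 and 37 counts in naïve libraries 1 to 4 and 38, 30, 11 and 19 counts in media, or 7.66, 13.6, 3.23 and 2.07 CPM against 1.76, 1.64, 0.613 and 1.19 CPM. The groups did not overlap in CPM, but naïve libraries 1 and 2 were well above 3 and 4. The log2 fold change was -2.34 (SE 0.53, adjusted p = 0.00166 in edgeR), and without those 2 libraries it was -1.09 and no longer called, with an adjusted p of 0.0288 in a range of 1.63e-05 to 0.0288 over all alternatives.

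The other 3 genes were not called between naïve and media cells. Slc11a2, which moves ferrous iron out of the endosome, was at 73.5, 79.5, 80.5 and 39.7 CPM in naïve cells and 76.2, 89.8, 69.8 and 74.5 CPM in media. Ireb2, which codes for iron regulatory protein 2, ran from 91.3 to 137 CPM in naïve cells and from 88.3 to 126 CPM in media, and Ncoa4, which carries ferritin to the lysosome for breakdown, ran from 28.1 to 46.7 and from 32.8 to 41.1 CPM. The groups overlapped for each of the 3, with log2 fold changes of 0.18, 0.07 and 0.00. Of the 7 genes, 1 was thus called higher and 3 lower at an adjusted p of at most 0.01, where 28.5% of all tested genes were called higher and 29% lower, and 4 of 7 did not overlap between the groups, against 61.2% of all tested genes.

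Library numbers fall into a low and a high run, and each group has libraries in both. The low run holds 3 naïve and 3 media libraries and the high run 1 of each, so the latter gives a difference with no spread. The difference of mean log2 CPM between media and naïve cells for Tfrc was 1.98 within the low run and 2.44 within the other. In the same order it was -1.61 and -1.50 for Fth1, and -1.77 and -1.34 for Ftl1. For Steap3 it was -2.41 and -0.75. Of the 3 genes that were not called, Slc11a2 had differences of 0.01 and 0.91, while Ireb2 (0.31 and -0.63) and Ncoa4 (-0.15 and 0.54) were opposite in sign between the runs.

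Cells activated with lactate are compared with the same naïve libraries, so both comparisons with naïve cells share those 4 samples. Tfrc was at 823, 690, 585 and 616 CPM in lactate libraries 1 to 4, above every naïve library, a log2 fold change of 2.05 (SE 0.26, adjusted p = 1.23e-05 in edgeR). Fth1 was at 322, 392, 328 and 362 CPM, and Ftl1 at 253, 269, 245 and 259 CPM, both below every naïve library. The log2 fold change from naïve cells was -1.54 for Fth1 (SE 0.16, adjusted p = 2.75e-06 in edgeR) and -1.29 for Ftl1 (SE 0.19, adjusted p = 3.98e-05 in edgeR). Without naïve libraries 1 and 2 the values were 2.42 for Tfrc, -1.39 for Fth1 and -0.94 for Ftl1. The low and high runs gave differences of 2.08 and 2.62 for Tfrc, -1.46 and -1.64 for Fth1, and -1.26 and -1.11 for Ftl1.

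Ncoa4 and Steap3 were also called lower in lactate than in naïve cells, though for both the groups overlapped. Ncoa4 was at 43.3, 46.7, 33.4 and 28.1 CPM in naïve cells and at 23.1, 20.2, 26.7 and 28.4 CPM in lactate, so that lactate library 4 was slightly above naïve library 4. Its log2 fold change was -0.62 (SE 0.17, adjusted p = 0.00419 in edgeR), with differences of -0.91 within the low run and -0.03 within the other. The call was lost without naïve library 1 (adjusted p = 0.0127), lactate library 1 (0.0137) or lactate library 2 (0.0150), and without naïve libraries 1 and 2 the log2 fold change was -0.39 with an adjusted p of 0.0467, in a range of 9.30e-05 to 0.0467 over all alternatives in edgeR, DESeq2 and limma. A replicate block by title number also ended the call (adjusted p = 0.0130 in edgeR).

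Steap3 had 40, 29, 21 and 44 counts in lactate libraries 1 to 4, or 2.05, 1.52, 1.49 and 2.12 CPM, of which the highest was just above naïve library 4 at 2.07. Its log2 fold change was -1.88 (SE 0.52, adjusted p = 0.00531 in edgeR), with differences of -1.92 and -0.21 within the low and the high run. The call was lost without naïve library 1 (adjusted p = 0.0121), naïve library 2 (0.0148), lactate library 1 (0.0123), lactate library 2 (0.0171) or lactate library 3 (0.0137). It was also lost in edgeR with a term for the library run (adjusted p = 0.0178) or in the 2 groups alone (0.0106). In limma voom the adjusted p was 0.0284. Without both naïve libraries 1 and 2 the value was -0.62 with an adjusted p of 0.171, in a range of 0.000338 to 0.171 over all alternatives in edgeR, DESeq2 and limma.

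For Ireb2 and Slc11a2 the lactate and naïve libraries gave log2 fold changes of -0.26 and -0.23 that were not called. Between the runs both were opposite in sign, at 0.04 and -0.81 for Ireb2 and at -0.39 and 0.53 for Slc11a2. Without naïve library 4, whose Slc11a2 level of 39.7 CPM was far under the other 3, Slc11a2 was called lower at -0.42 (adjusted p = 0.00106 in edgeR, in a range of 0.00106 to 0.691 over all alternatives). Between lactate and naïve cells 1 of the 7 genes was called higher and 4 lower, beside 33% and 32% of all tested genes, and 3 of 7 did not overlap, beside 67.8%.

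Lactate against plain media is the comparison for the effect of lactate during activation, and there transferrin receptor and ferritin heavy chain RNA lay close together in both groups. The mean level of Tfrc was 663 ± 126 CPM (SD) in media and 678 ± 106 in lactate, and that of Fth1 was 337 ± 46.1 and 351 ± 32.7 CPM. Both genes overlapped between the groups, with log2 fold changes of 0.03 (SE 0.25) and 0.06 (SE 0.16). Ireb2 was at 111, 126, 118 and 88.3 CPM in media and at 112, 86.2, 78.1 and 77.9 in lactate, and these too overlapped. Its log2 fold change was -0.32 (SE 0.16, adjusted p = 0.132 in edgeR). Under the alternatives that of Ireb2 ran from -0.46 to -0.19 and was never called. Steap3 stayed at 11 to 44 counts in all 8 activated libraries, with a log2 fold change of 0.46 that was not called (SE 0.53, adjusted p = 0.528 in edgeR).

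The light chain of ferritin, the endosomal iron transporter and the ferritin receptor differed between media and lactate without overlap, yet missed the threshold. Ftl1 was at 186, 166, 196 and 215 CPM in media and at 253, 269, 245 and 259 CPM in lactate, so all 4 lactate libraries were higher. Slc11a2 was at 76.2, 89.8, 69.8 and 74.5 CPM in media against 56.2, 62.8, 56.3 and 58.0 in lactate, and Ncoa4 was at 32.8, 39.7, 38.0 and 41.1 CPM against 23.1, 20.2, 26.7 and 28.4. For both of these genes all 4 lactate libraries were lower. The log2 fold changes were 0.43 for Ftl1 (SE 0.18, adjusted p = 0.0825 in edgeR), -0.41 for Slc11a2 (SE 0.18, adjusted p = 0.0913 in edgeR) and -0.62 for Ncoa4 (SE 0.17, adjusted p = 0.010005 in edgeR), the last just above the threshold of 0.01. The low run holds 3 media and 2 lactate libraries and the high run 1 and 2, and the difference within them was 0.52 and 0.23 for Ftl1, -0.40 and -0.38 for Slc11a2, and -0.76 and -0.57 for Ncoa4. For the other 4 genes it was 0.10 and 0.18 for Tfrc, 0.15 and -0.14 for Fth1, -0.27 and -0.18 for Ireb2, and 0.50 and 0.54 for Steap3.

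None of the 7 genes was thus called between lactate and media by edgeR in the fit to all 12 libraries, where 13.9% of all tested genes were called higher and 11.1% lower. At an unadjusted p of at most 0.05 edgeR gave 3, beside 48.2% of all tested genes. At the adjusted threshold DESeq2 gave 1, beside 33.1%, and limma voom 0, beside 25.3%. The 3 genes that did not overlap compare with 44.7% of all tested genes. The fit shares 1 estimate of the spread over all groups. With the media and lactate libraries alone, where 33.3% of all tested genes were called, these 3 were called too, at 0.44 for Ftl1 (adjusted p = 0.00244), -0.40 for Slc11a2 (0.00475) and -0.61 for Ncoa4 (0.00207). Without naïve library 4, Slc11a2 (adjusted p = 0.00187) and Ncoa4 (0.00253) were called, beside 35.6% of tested genes, and without naïve library 2 Ncoa4 was (0.00620), beside 25%. The adjusted p under the alternatives lay between 0.00244 and 0.309 for Ftl1, between 0.00187 and 0.410 for Slc11a2 and between 0.000894 and 0.0598 for Ncoa4.

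The mouse of origin was used as a replicate block, since 3 mice gave both kinds of activated library. With the 4 naïve libraries kept as a further level 0 of the 7 genes were called by edgeR, beside 992 of 13767 tested genes (7.21%). In the 8 activated libraries alone, a fit added after seeing the data that called 3769 of 13767 genes (27.4%), Ftl1 was called at 0.40 (adjusted p = 0.00791) and Ncoa4 at -0.64 (adjusted p = 0.00293).

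Ratios between members, formed within each library from TPM levels, describe the same shifts without a test. The ratio of Tfrc to Fth1 was 0.0923 ± 0.0383 in naïve cells, 1.13 ± 0.315 in media and 1.09 ± 0.228 in lactate, and every activated library was above every naïve one. With the length of the longest transcript these means were 0.0694, 0.851 and 0.822. Which of Tfrc and Fth1 was higher in activated cells thus depended on the length used. The ratio of Fth1 to Ftl1 was 0.647 ± 0.0936 in naïve cells, 0.683 ± 0.0595 in media and 0.528 ± 0.0310 in lactate. It ran from 0.634 to 0.767 in media and from 0.492 to 0.564 in lactate, so these groups did not overlap, while the naïve libraries, from 0.538 to 0.763, overlapped both. With the length of the longest transcript the means of Fth1 to Ftl1 were 0.786, 0.830 and 0.642.

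Around these 7 genes, 73 other genes of iron handling were listed by function, of which 66 were in the table and tested. Missing from it were Steap1, Steap2, Heph, Flvcr2, Hamp, Ftmt and Fdx2. Between media and naïve cells 18 of the 66 (27.3%) were called higher and 21 (31.8%) lower, near the 28.5% and 29% of all tested genes, with a median log2 fold change of 0.05 beside -0.03 for all tested genes. Between lactate and naïve cells the counts were 25 (37.9%) and 18 (27.3%), beside 33% and 32% of all tested genes, and the medians 0.16 and 0.01. Slc40a1, Cp and Steap4 were at or near 0 in activated cells, and at a floor of 3 counts per library they still lie below these medians, which are therefore the same with or without it.

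The 3 largest falls from naïve cells, among called listed genes with a mean of at least 5 CPM, were in Slc40a1, Hfe and Hmox1 in both activated groups. Slc40a1, ferroportin, the exporter of cellular iron, was at 1037, 599, 267 and 150 CPM in naïve libraries 1 to 4 and had 0 counts in every media library, at least 3121-fold lower against a floor of 3 counts per library, and at most 1 count in a lactate library. Its order among the naïve libraries was that of the macrophage marker sum. Hmox1, the inducible enzyme that opens the haem ring, was at 1034, 725, 252 and 579 CPM in naïve cells, and its mean fell from 648 to 8.48 CPM in media and to 16.7 in lactate, log2 fold changes of -6.25 and -5.27 (adjusted p = 3.81e-08 and 6.97e-08 in edgeR). Hfe, a partner of the transferrin receptor, went from a mean of 32.9 CPM to 0.300 in media, with log2 fold changes of -6.71 in media and -5.81 in lactate (adjusted p = 9.74e-07 and 1.31e-06 in edgeR). The part of macrophage RNA in these falls was not tested.

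The 3 largest rises from naïve cells, by the same rule, were in Cisd1 and Slc39a10 in both activated groups, with Fdxr in media and Hspa9 in lactate. Cisd1, an iron-sulfur protein of the outer mitochondrial membrane that was listed with the genes of sensing by iron regulatory proteins, rose from a mean of 7.81 CPM to 41.6 in media and 56.0 in lactate, by 2.41 and 2.84 on the log2 scale (adjusted p = 5.21e-08 and 1.43e-08 in edgeR). Slc39a10, a metal importer of the ZIP family, rose from 27.4 CPM to 92.3 and 124, by 1.75 and 2.17. Fdxr, the reductase that passes electrons to mitochondrial ferredoxin, rose by 1.35 in media, from 23.6 to 60.1 CPM, and Hspa9, the mitochondrial chaperone that serves iron-sulfur cluster transfer, rose by 2.23 in lactate, from 230 to 1076 CPM. Aco1, which codes for iron regulatory protein 1, was at 42.0, 36.0, 34.2 and 32.4 CPM in naïve cells, at 50.8, 40.7, 45.9 and 47.2 in media and at 62.6, 53.4, 68.1 and 64.0 in lactate. From naïve cells its log2 fold change was 0.35 in media, not called (adjusted p = 0.0138 in edgeR), and 0.78 in lactate (adjusted p = 4.01e-05 in edgeR).

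Per list the counts are small, and over all tested genes 28.5% were called higher and 29% lower in media and 33% and 32% in lactate. The iron entry and endosome genes had 4 called higher and 5 lower of 12 in media against naïve cells and 4 and 4 in lactate. The genes of sensing by iron regulatory proteins had 2 and 2 of 5 in media and 2 and 3 in lactate, and the cytosolic iron chaperones 2 and 1 of 4 in media and 3 and 0 in lactate. Of 4 export genes 0 were higher and 3 lower in media, and 0 and 2 in lactate. The haem genes had 1 higher and 5 lower of 13 in media and 3 and 6 in lactate, the mitochondrial iron and iron-sulfur genes 7 and 2 of 19 in media and 10 and 2 in lactate, and the cytosolic iron-sulfur assembly genes 2 and 3 of 9 in media and 3 and 1 in lactate.

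Between lactate and media 23 of the 66 listed genes were called, 16 higher and 7 lower, or 24.2% and 10.6% beside 13.9% and 11.1% of all tested genes. The median log2 fold change was 0.25 for the list and -0.00 for all tested genes. Of the 38 listed genes whose groups did not overlap, 30 were higher and 8 lower in lactate, while 6156 of the 13767 tested genes (44.7%) did not overlap, 3200 of them higher and 2956 lower. No test of the difference between the list and the rest was made, and the list was chosen with earlier results of these data known.

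The largest fall among them was in Fbxl5, the iron-sensing subunit of the ligase that marks iron regulatory protein 2 for degradation. It was at 119, 209, 191 and 137 CPM in media and at 57.0, 63.1, 56.0 and 55.1 in lactate, so every lactate library was below every media library. Its log2 fold change was -1.50 (adjusted p = 6.36e-05 in edgeR). Aco1, from the same list, was called higher by 0.43 (adjusted p = 0.00937 in edgeR), with no overlap between the groups, but this call was kept in 9 of 24 alternatives and lost in 15, with adjusted p from 0.00395 to 0.106.

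The cytosolic chaperones that hand iron to ferritin and other proteins had 3 of 4 genes called higher, beside 13.9% of all tested genes. Pcbp1, which delivers iron to ferritin, was at 276, 221, 260 and 270 CPM in media and at 549, 397, 530 and 522 in lactate, a rise of 0.96 on the log2 scale (adjusted p = 0.000118 in edgeR) seen in all 4 lactate libraries. Bola2 rose by 0.62, from a mean of 23.6 to 36.3 CPM, and Glrx3, its partner, by 0.41, from 88.9 to 118 CPM.

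Of 19 genes of mitochondrial iron and iron-sulfur clusters 4 were called higher (21.1%) and 2 lower (10.5%), beside 13.9% and 11.1% of all tested genes. The 4 that rose were Glrx5 by 1.04, Hspa9 by 0.92, Iscu, the scaffold on which clusters are built, by 0.87, and Lyrm4 by 0.75. In the same list Slc25a28, which imports iron into mitochondria, and Hscb, the co-chaperone of Hspa9, had log2 fold changes of -0.95 and -0.86. In the cytosol Nubp2 rose by 1.27, Ciapin1 by 0.95 and Nubp1 by 0.49, while Ndor1 and Mms19 stood at -0.52 and -0.39, 3 called higher and 2 lower of 9. The adjusted p of these 11 genes ran from 9.06e-05 for Nubp2 to 0.00974 for Ndor1 in edgeR.

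Of 12 genes of iron entry and the endosome 3 were called higher (25%) and 1 lower (8.33%), beside 13.9% and 11.1% of all tested genes. Slc39a14, a metal importer, rose by 0.70 (adjusted p = 0.00271 in edgeR) and Snx3, which sorts the transferrin receptor back to the surface, by 0.42 (adjusted p = 0.00234 in edgeR). Slc46a1, a carrier of folate and haem, had 4, 4, 3 and 3 counts in media and 20, 15, 11 and 26 in lactate, so its log2 fold change of 2.31 (adjusted p = 0.00141 in edgeR) rests on few counts. Exoc6, of the complex that tethers vesicles, had a mean of 92.1 CPM in media and 53.6 in lactate, a log2 fold change of -0.78 (adjusted p = 0.00017 in edgeR).

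Of 13 haem genes 1 was called higher and 1 lower (7.69% each, under the shares over all tested genes), and of 4 export genes 1 was called higher. Hmox2, the constitutive haem oxygenase, rose by 0.76 (adjusted p = 0.000345 in edgeR), from 85.7 to 145 CPM, and Ppox, an enzyme late in haem synthesis, fell by 0.68 (adjusted p = 0.00547 in edgeR), from 75.6 to 47.2 CPM. Flvcr1, which exports haem, rose by 0.56 (adjusted p = 0.00352 in edgeR).

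**Figure D3:**
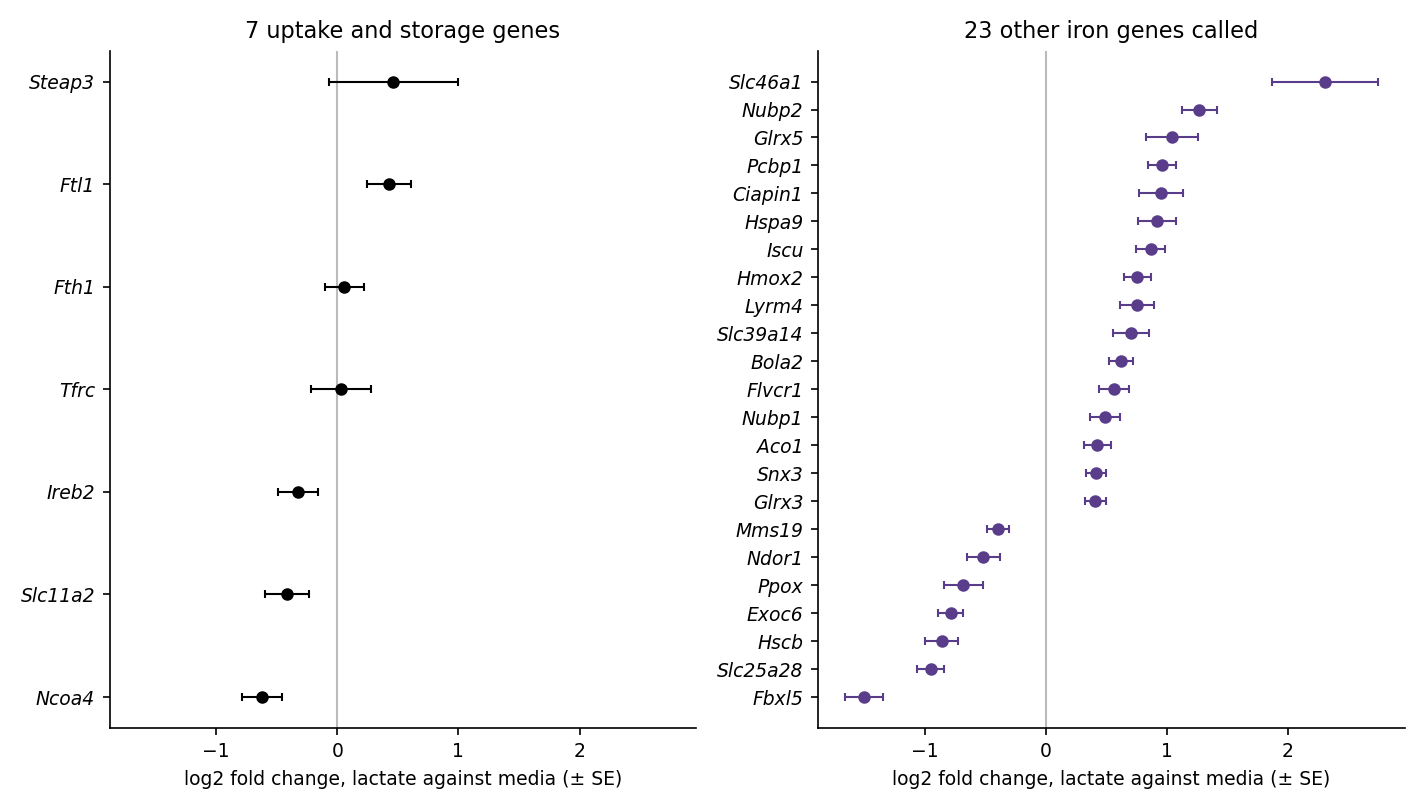
Log2 fold change of lactate against media for the 7 genes and the 23 listed iron genes called in that comparison, with bars of 1 SE. Fbxl5 is the lowest at -1.50, and the 7 genes lie between -0.62 and 0.46.

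Of the 23 called genes 14 were called in each of the 12 fits that left out 1 library, and 9 were lost in 1 or more. Snx3 (adjusted p = 0.0129 in edgeR) and Slc39a14 (0.0114) were lost without lactate library 3, and Glrx3 without lactate library 3 (0.0165) or 4 (0.0123). Flvcr1 was lost without media library 1 or 2 or lactate library 1 or 4, at 0.0113 to 0.0126. Ppox and Mms19 were lost without media library 2 or 3 or lactate library 1, 3 or 4, at 0.0143 to 0.0209 and 0.0131 to 0.0142. Nubp1 was lost without naïve library 2 or 3, media library 2, 3 or 4, or lactate library 1, 3 or 4, at 0.0103 to 0.0246. Aco1 was lost without those 8 libraries or media library 1, at 0.0111 to 0.0356. Ndor1 was lost without naïve library 1, 2 or 3, media library 1, 2 or 3, or lactate library 2, 3 or 4, at 0.0117 to 0.0300. Over the 24 alternatives Ndor1 was called in 8 and Nubp1 in 13. Without lactate library 3 the list had 15 called genes, in a fit that called 2319 of 13702 tested genes (16.9%), against 25.1% in the fit to all libraries. With the mouse as a replicate block 9 of the 23 were called when the naïve libraries formed a further level and 16 in the 8 activated libraries alone, and all 23 kept their direction in both.

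The hairpin that iron regulatory proteins bind was searched for in the transcripts of all 7 genes, and its sites are shown because they lie at opposite ends of the RNA of Tfrc and of the ferritin genes. The search took a C, 5 bases, the loop CAGTGN, and 5 bases that pair with the first 5, on the transcript strand of GENCODE release M21 (GRCm38). The sites found are printed 5′ to 3′ on that strand with T for U, and the capitals mark the loop. Fth1 has 1 in its 5′ UTR at chr19:9982732-9982760 (plus strand) and Ftl1 has 1 in its 5′ UTR at chr7:45459779-45459807 (minus strand). Tfrc has 4, all in its 3′ UTR, at chr16:32631219-32631247, chr16:32631598-32631626, chr16:32631663-32631691 and chr16:32631710-32631738 (plus strand).
Fth1: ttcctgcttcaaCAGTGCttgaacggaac
Ftl1: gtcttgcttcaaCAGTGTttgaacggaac
Tfrc site 1: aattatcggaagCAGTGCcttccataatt
Tfrc site 2: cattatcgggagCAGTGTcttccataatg
Tfrc site 3: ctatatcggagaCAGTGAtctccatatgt
Tfrc site 4: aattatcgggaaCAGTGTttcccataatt

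The 3 genes with a match were the 3 most abundant of the 7 on the TPM scale in each group, and Ireb2, Slc11a2, Ncoa4 and Steap3 had 0 matches to these letters. The search allowed no unpaired base in the stem and no other loop, so elements of another form would be missed. A gene with 0 matches may therefore still hold an element, and a gene with a match may hold more. Among all 21951 coding genes 301 held a match anywhere in a transcript, or 1.37%, with 0.141% in a 5′ UTR and 0.656% in a 3′ UTR. Of the listed genes Slc40a1 had a match in its 5′ UTR and Bola3, which takes part in mitochondrial cluster transfer, in its 3′ UTR. Any matches of listed genes on a further chromosome are not reported here, so these need not be all. A match is a description of the sequence and was not tested for binding.

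Promoter windows from RefSeq (GRCm38.p6) were found for 6 of the 7 genes, 13 windows in all, and none for Slc11a2. On both strands, CACGTG was in none of the 13 and in 7.15% of 32851 windows of all genes. Its inner part ACGTG, which CACGTG contains, was in 2 of 3 windows of Ncoa4 and in both windows of Tfrc, which overlap and share the same single site, beside 19.6% of all windows. TGACNNNGC was in 1 window of Ncoa4, beside 12.4%. These matches are letters in a window and say nothing of factors bound there.

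On the genome (GRCm38) the 7 genes lie on 7 chromosomes. Tfrc (ENSMUSG00000022797) is at chr16:32608920-32632794, Steap3 (ENSMUSG00000026389) at chr1:120190757-120272705 and Slc11a2 (ENSMUSG00000023030) at chr15:100387898-100425072. Fth1 (ENSMUSG00000024661) is at chr19:9980598-9985098 and Ftl1 (ENSMUSG00000050708) at chr7:45457944-45459884. Ncoa4 (ENSMUSG00000056234) is at chr14:32159865-32179855 and Ireb2 (ENSMUSG00000032293) at chr9:54863789-54912530.

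Ferritin genes have processed copies in the mouse genome, which bears on reads counted only where they map once. Windows of 71 bases were taken along 1 transcript of each gene. For Fth1 (1494 bases) and Ncoa4 (4065 bases) this was not the longest, which has 2062 and 4733 bases. Of the windows of Ftl1, 770 of 898 (85.7%) also occurred in transcripts of 8 other genes, none of which is in the count table. For Ncoa4 it was 1666 of 3995 (41.7%), shared with Gm6768, which is not in the table, and for the other 4 genes 0. For Fth1 it was 37 of 1424 (2.60%), shared with Gm6977, which is in the table with 23 to 45 counts in naïve, 7 to 15 in media and 4 to 19 in lactate libraries. The TPM levels of Ftl1 and Ncoa4 were not corrected for this, while a comparison of 1 gene between groups uses the same windows throughout. Exons of Ftl1 overlap Gm10252 on the opposite strand over 26.5% of their length, and those of Slc11a2 overlap Gm5475 over 6.33%.

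For each of the 7 genes the tested genes with the most similar profile over the 12 libraries were found by the root mean square difference of centred log2 CPM. Tfrc was closest to Pola1 (0.203), Xrcc3 (0.208) and Ikbip (0.209). Fth1 was closest to Fam219a (0.178), Tpcn2 (0.188) and Pqlc1 (0.195), and Ftl1 to Plod1 (0.177), Cln8 (0.188) and Acer3 (0.197). The ferritin chains were thus each nearer to other genes than to one another. The nearest gene was R3hdm4 for Slc11a2 (0.0806), Dhx8 for Ireb2 (0.0941), Ift140 for Ncoa4 (0.122) and March8 for Steap3 (0.388), the last the loosest match of the 7.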

How the data were processed

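The data are RNA-seq counts of 12 libraries from mouse CD8+ T cells. The authors made the reads with bcl2fastq 2.20.0.422, mapped them to GRCm38 with STAR 2.7.5b, discarded PCR duplicates and used featureCounts on reads that mapped once, within exons. The deposited table gives a raw count per gene and library, with the gene's length, and its values are whole numbers that were not normalized. The library kit is stranded, but whether counting used the strand is not given. A floor of 3 counts covers counting error only.

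The filter asked for 1 CPM or more in at least 3 libraries and dropped 13 genes. In R 4.3.3, edgeR 4.0.16 scaled counts by TMM and fitted the 3 groups, without a block, in 1 quasi-likelihood model of all 12 libraries. Tests were two-sided, adjusted by Benjamini-Hochberg over 13767 genes, and called at 0.01. The common dispersion was 0.0553, a coefficient of variation of 23.5%. A standard error is the size of the log2 fold change over the square root of F. TPM used the table's lengths, and log2 CPM a prior count of 2. The code was tested on simulated data.

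The genes and lists were chosen with earlier results of these data known. Named genes were the 7 members, every listed gene called between lactate and media, the 3 largest rises and 3 largest falls among called listed genes with a mean of at least 5 CPM in each comparison with naïve cells, and Aco1. Profile neighbours were the 3 genes with the smallest root mean square difference, among genes with a mean of at least 5 CPM and no predicted name.

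Replicates, donor tags and library numbers came from the labels, and tags were read separately for each run of library numbers. A further marker list of another cell type is not reported here. Libraries that share a title number do not all share a donor: the correlation across genes of their deviations from the group mean was 0.374, 0.297, 0.0038 and 0.553, and 0.374, 0.211 and 0.553 for the 3 pairs that share a donor. Genes are not independent replicates.

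The alternatives were DESeq2 1.42.0 and limma 3.58.1 (voom), DESeq2's size factors, total counts, no filter or a mean of at least 5 CPM, the 2 compared groups alone, a term for the run of library numbers, replicate blocks (by title number, by donor), a threshold of 0.05, other lengths for TPM, and leaving out each library. Those without naïve libraries 1 and 2, and with the donor block in the 8 activated libraries alone, were chosen after seeing the data.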

Additional observations from a re-analysis of the deposited data

Results flagged for a closer look

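In 110 groups of 4 libraries, 7 held a library far from the other 3, by the gap to its nearest neighbour relative to the range of the group. Chance gives this in about 1 in 20 groups. Slc11a2 was at 39.7 CPM in naïve library 4 and between 73.5 and 80.5 in the other naïve libraries. Snx3 was at 119 CPM in the same library, with the others between 103 and 106. Hfe was at 0.509 CPM in media library 1 and between 0.218 and 0.251 in the other media libraries, all of them low counts. Ndor1 was at 13.0 CPM in media library 4, against 17.1 to 17.8. In media library 2 Lyrm4 was at 8.08 CPM, against 9.97 to 10.3, and Nubp1 was at 57.3 CPM, against 77.1 to 80.1. Hspa9 was at 1188 CPM in lactate library 1, against 1031 to 1051.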

How the results depend on the processing

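Log2 fold changes of Tfrc, Fth1 and Ftl1 against naïve cells kept their direction and their call under every alternative tried. Of the log2 fold changes of all named genes over all alternatives, 1200 kept direction and side of the threshold, 91 lost a call, 16 gained one and 21 changed sign.

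Leaving out 1 library at a time, the lowest and highest log2 fold changes between media and naïve cells were -0.13 and 0.065 for Ncoa4, -0.058 and 0.21 for Ireb2, and -0.011 and 0.23 for Slc11a2. Between lactate and naïve cells they were -2.19 and -1.35 for Steap3, -0.77 and -0.54 for Ncoa4, and -0.42 and -0.21 for Slc11a2. Between lactate and media they were -0.70 and -0.54 for Ncoa4, -0.46 and -0.34 for Slc11a2, -0.073 and 0.16 for Tfrc, and -0.023 and 0.11 for Fth1. In these fits between 0 and 2 of the 7 genes were called between lactate and media, and between 3 and 6 between lactate and naïve cells, where 8113 to 9335 tested genes were called. Between lactate and media 15 to 29 listed genes and 2252 (without media library 2) to 4845 tested genes were called.

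Ncoa4 between media and naïve cells was at -0.061 with DESeq2, -0.061 with its size factors, -0.083 with a mean of at least 5 CPM and -0.0029 with a run term. Between lactate and media it was called at -0.66 with DESeq2, -0.66 with size factors, -0.67 with total counts, -0.65 with a mean of at least 5 CPM, -0.61 in the 2 groups alone, -0.62 without naïve libraries 1 and 2, and -0.64 in the block of activated libraries. Accordingly 1 of the 7 genes was called there with DESeq2 (beside 33.1% of tested genes), 1 with size factors (24.9%), 1 with total counts (24.9%), 1 with a mean of at least 5 CPM (30.9%), 1 at an adjusted p of 0.05 (39.7%), 1 without naïve libraries 1 and 2 (27.2%), and 3 in the 2 groups alone (33.3%), with Ftl1 at 0.44 and Slc11a2 at -0.40. Tfrc was at -0.0072 there with total counts, and 5461 tested genes were called at 0.05.

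Steap3 between lactate and naïve cells was not called with voom (-1.49), in the 2 groups alone (-1.93) or with a run term (-1.63), and it has no value with a mean of at least 5 CPM. Ireb2 between media and naïve cells was at -0.012 with that filter. Without naïve libraries 1 and 2 it was at -0.14, Steap3 was not called at -1.09 (media) and -0.62 (lactate), Ncoa4 was not called at -0.39 (lactate), and 3 of the 7 genes were called between lactate and naïve cells, beside 54.7% of tested genes.

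In the replicate block by title number Ncoa4 between lactate and naïve cells was not called at -0.62. In the replicate block by donor 9 listed genes and 992 tested genes were called between lactate and media. In that replicate block in activated libraries alone 2 of the 7 genes were called, beside 27.4% of tested genes, with Ftl1 at 0.40. For changed values the cause was not tested, beyond the fewer libraries or genes that an alternative holds.

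With 4 libraries a group and a coefficient of variation of 23.5% estimated over all 12 libraries, differences near 0.4 on the log2 scale were called for some genes only. Between lactate and media Snx3 was called at 0.42 (adjusted p = 0.00234 in edgeR), while Ftl1 was not at 0.43 (adjusted p = 0.0825 in edgeR). The coefficient of variation of Ftl1 was 31.4% in naïve cells, 10.5% in media and 3.96% in lactate. In the media and lactate libraries alone Ftl1 was called at 0.44 (adjusted p = 0.00244 in edgeR). Steap3 had 11 to 44 counts in activated libraries. RNA levels give no protein level, iron content or binding of iron regulatory proteins. Donor and library run are partly joined.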
